A study of Bos taurus with 8 samples.

Results

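The interferon regulatory factor (IRF) genes analysed here were IRF1, IRF2, IRF3, IRF4, IRF5, IRF7, IRF8 and IRF9. Every window of the bovine genome that carried one of these gene symbols was taken, together with the 2 windows on each side of the gene. This gave 56 windows in 8 genes and 32 flanking windows, of 902984 windows and 26171 gene symbols in all. Each of the 56 windows spanned 3 kb, and 29 of them touched a coding exon. A window is labelled with a single coding-exon number, although it can span several exons. Members were taken by symbol and that rule used no measured value, but they were chosen with earlier results of these data known.

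IRF proteins are transcription factors that share a DNA-binding domain and recognise related elements in the promoters of interferon genes and of genes induced by interferon. Some are switched on by sensors of viral or bacterial products, some carry the signal of the interferon receptors, and some act mainly in the development of blood and immune cells. Fibroblasts of the skin respond to bacterial lipopolysaccharide (LPS) and to interferon, and IRF proteins take part in those responses. DNA methylation at CpG sites is usually low over active or poised promoters and can be high inside transcribed genes.

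MIRA-Seq was performed on untreated dermal fibroblasts from 4 Holstein and 4 Angus heifers, with no exposure to LPS, 1 library per animal at passage 5. Cells had been isolated from shoulder skin of females of the same age, and each culture is named here by breed and animal number. In MIRA-Seq, sonicated DNA is pulled down with the MBD2b/MBD3L1 protein complex, which binds methylated CpG sites, so that a window with more methylated CpG gives more reads. Holstein is a dairy breed and Angus a beef breed, and the comparison of the breeds asked whether their fibroblasts differ in methylation before any challenge. The libraries hold DNA, so fibroblast identity was not checked against marker genes and the expression of the IRF genes was not analysed here. Breed and any shared history of the cultures that goes with breed cannot be told apart. The P-values of the breed comparison set the difference against the spread between single cultures of different animals. In those fits the spread is estimated partly over all windows or genes tested, not from the single window alone. The P-values of first windows rest on differences within libraries.

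The libraries held between 18691111 and 35525554 reads in windows, and values are given per 3 kb window as CPM, the count in the window relative to all reads in windows of that library. At this depth the floor, set at 3 reads in a window, was 0.0844 to 0.161 CPM, and it covers counting error only. A pair of libraries stood apart from the rest of their breed. Holstein 1 had the lowest CPM of the Holstein libraries in 46 of the 56 IRF windows, and Angus 3 had the lowest of the Angus libraries in 42 of 56. After scaling with TMM factors, which correct for reads concentrated in few windows, these counts were 29 and 22 of 56. Breed differences and first windows were also computed without each library in turn and, chosen after seeing the data, without both of these.

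The levels of the 8 genes, as mean CPM per 3 kb window over the whole gene, spanned from 0.859 ± 0.226 in IRF1 to 2.97 ± 0.53 in IRF8 (SD, n = 8 libraries). IRF8 and IRF4, the members known chiefly from the immune lineages, had the highest levels. IRF1 and IRF2, an activator and its antagonist at the same DNA element, had the lowest. The median of the 8 genes was 1.51 CPM, beside 0.544 CPM over 25328 genes on placed chromosomes, and all 8 lay above that median. IRF8 was higher than 93.7% of these genes and IRF4 than 92.2%, whereas IRF2 was higher than 64.6% and IRF1 than 64.4%. Read counts in a window follow its number of CpG sites as well as their methylation, and no input library was used here, so a level is not a share of methylated sites.

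**Figure D1:**
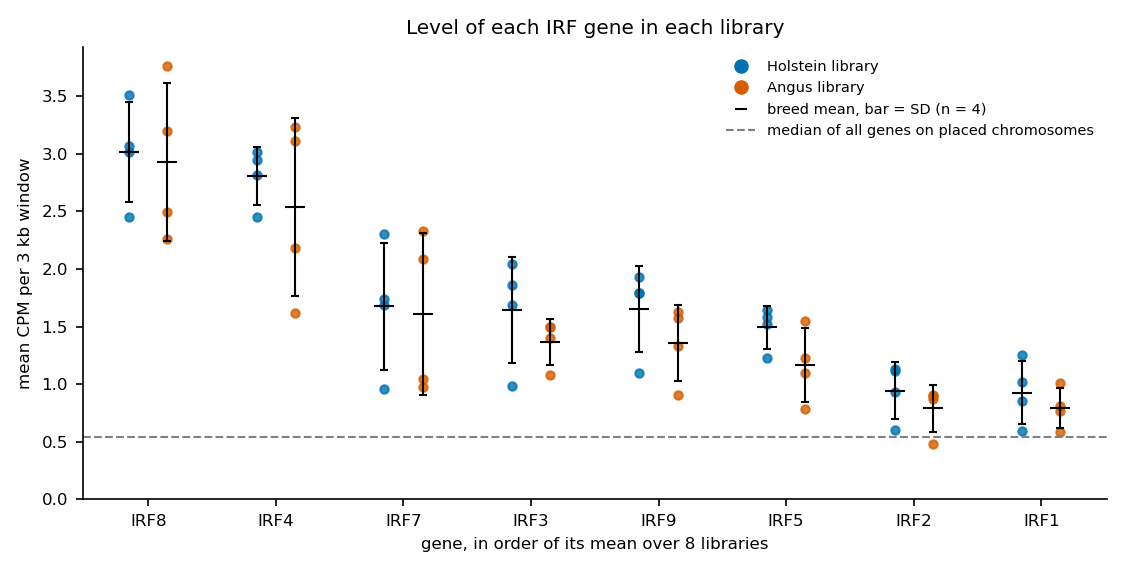
Mean CPM per 3 kb window (y axis) of each IRF gene (x axis, ordered by its mean over 8 libraries), with 1 point per library in blue for Holstein and orange for Angus, breed means as ticks and SD bars (n = 4), and the median of all genes on placed chromosomes as a dashed line. The Holstein and Angus points overlap in every gene, and IRF8 and IRF4 lie well above the dashed line at 0.544 CPM.

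In the order of levels, only some neighbours were separated in every library. IRF4 lay above IRF7 in 8 of 8 libraries, with a difference of 1.03 ± 0.30 CPM, and IRF5 lay above IRF2 in 8 of 8, with a difference of 0.463 ± 0.174 CPM (SD, n = 8). IRF8 lay above IRF4 in 7 of 8 libraries and IRF9 above IRF5 in 7 of 8. The differences between IRF7 and IRF3, IRF3 and IRF9, and IRF2 and IRF1 were smaller than their spread, with the gene of higher mean being higher in 3, 4 and 5 of 8 libraries. IRF3 and IRF9 changed places when mean coverage replaced read counts, and so did IRF2 and IRF1 with TMM library sizes.

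IRF3 and IRF7 are the factors that cytoplasmic kinases phosphorylate after viral or bacterial products are sensed, and they induce the type I interferon genes. IRF3 lies on chromosome 18 between 56517398 and 56523397 on the minus strand (UMD v3.1) and covered 2 windows. Its level in Holstein 1 to 4 was 0.986, 1.86, 2.04 and 1.69 CPM per window, and Angus 1 to 4 had 1.40, 1.5, 1.07 and 1.5. The lowest value was that of Holstein 1, which stood below all 4 Angus values. The first window by strand, which touches coding exon 3, had 0.936 ± 0.276 CPM, and the second window, which touches exon 7, had 2.07 ± 0.56 (SD, n = 8). The flanking windows belong to the neighbours BCL2L12 upstream and SCAF1 downstream. Along this stretch the window means ran from 0.387 ± 0.151 CPM just upstream to 4.41 ± 1.26 CPM in the farther SCAF1 window (SD, n = 8).

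IRF7 occupied a single window on chromosome 29 (50904219 to 50907218, plus strand, exon 1), so its promoter side and its body cannot be told apart. Holstein 1 to 4 had 0.961, 1.69, 1.74 and 2.31 CPM there, while Angus 1 to 4 had 0.977, 2.33, 1.04 and 2.09. Both breeds covered the same range, and no other member spread as widely relative to its mean (1.64 ± 0.58, SD, n = 8). IRF7 sits in a dip between more heavily read neighbours. The 2 upstream windows in CDHR5, a cadherin family gene, averaged 3.40 ± 0.78 CPM and the 2 downstream windows in PHRF1 averaged 6.70 ± 1.82 (SD, n = 8), and IRF7 was below its upstream flank in 8 of 8 libraries.

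IRF1 activates interferon-induced and inflammatory genes. It lies on chromosome 7 (23235446 to 23244445, plus strand) in 3 windows, all with coding exons. In its first window Holstein 1 to 4 had 0.152, 0.692, 0.984 and 0.704 CPM, while Angus 1 to 4 had 0.663, 0.522, 0.201 and 0.589. The values of Holstein 1 and Angus 3 rested on 3 and 6 reads, the lowest of the 8. The second window, with exon 3, was the highest of the gene in 8 of 8 libraries, at 1.35 ± 0.31 CPM, and the third, with exon 8, had 0.661 ± 0.171 (SD, n = 8). IRF1 as a whole lay above its upstream flank, at 0.368 ± 0.156 CPM, in 8 of 8 libraries.

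IRF2 binds the same element as IRF1 and can hold its targets back. With 29 windows on chromosome 27 (13907067 to 13994066, minus strand) it was the longest member, and its windows ranged from 0.133 to 2.11 CPM. The first window had the lowest mean of all 56 IRF windows. Holstein 1 to 4 had 2, 3, 4 and 3 reads in it, Angus 1 to 4 had 4, 7, 0 and 4, and the count of 0 in Angus 3 allows up to 0.101 CPM. Every library was within a few reads of the floor there, and a difference between breeds was not detectable at this depth in that window. It was above 11.2% of all first windows, whereas IRF2 as a whole was above 64.6% of genes. Its highest window was the 22nd by strand (13928067 to 13931066, no coding exon), where Holstein 1 to 4 had 1.92, 3.29, 1.97 and 2.36 CPM and Angus 1 to 4 had 1.47, 2.16, 1.28 and 2.41. That window was the highest in 4 of 8 libraries. Further local maxima lay in windows 6 and 15, at 1.80 ± 0.38 and 1.60 ± 0.37 CPM (SD, n = 8), and the pattern was jagged rather than a single block.

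IRF9 carries the type I interferon signal to its target genes as the DNA-binding part of a larger complex. It lies on chromosome 10 (20818401 to 20827400, minus strand) in 3 windows, next to RNF31 upstream and REC8 downstream. The CPM of its first window, which touches exon 2, was 1.72, 2.34, 2.72 and 2.87 for Holstein 1 to 4 and 2.06, 2.47, 1.11 and 1.93 for Angus 1 to 4. This window was the highest of the gene in 7 of 8 libraries, and its mean was above that of 92.2% of all first windows. The second window had 1.36 ± 0.31 CPM and the third 1.01 ± 0.36 (SD, n = 8), and the 2 REC8 windows after them averaged 2.20 ± 0.48. IRF9 was the single one of the 7 members with more than 1 window that had more reads in the first window than in the rest.

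IRF5 is activated downstream of Toll-like receptors and induces inflammatory cytokines. On chromosome 4 (93705605 to 93720604, plus strand) it covered 5 windows, of which the third and the fourth touch coding exons. For Holstein 1 to 4 its level was 1.22, 1.52, 1.58 and 1.64 CPM per window, and for Angus 1 to 4 it was 1.10, 1.55, 0.779 and 1.23. Angus 2 and Angus 4 lay within the Holstein range, and the other Angus libraries lay below it. The profile was a plateau over windows 2 to 4, with its maximum of 2.20 ± 0.54 CPM in window 3, and an end near 0. The last window had 0.437 ± 0.201 CPM, and the 2 windows after it, in TNPO3, averaged 0.0995 ± 0.0598 (SD, n = 8), which is close to the floor.

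IRF4 and IRF8 pair with other factors such as SPI1 and steer lymphocytes, macrophages and dendritic cells. IRF4 lies on chromosome 23 (52048993 to 52063992, minus strand) in 5 windows, all with coding exons. Levels of 2.45, 2.94, 2.81 and 3.02 CPM per window were found for Holstein 1 to 4, beside 2.19, 3.23, 1.62 and 3.11 for Angus 1 to 4. The Angus values enclosed all 4 Holstein values. The first window had 1.41 ± 0.46 CPM and the last, with exon 8, had 3.87 ± 0.79, the highest of the gene in 8 of 8 libraries (SD, n = 8). A low point lay just upstream, where the nearest flanking window had 0.781 ± 0.282 CPM beside 3.57 ± 0.82 in the next one out.

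IRF8 lies on chromosome 18 (11882798 to 11906797, plus strand) in 8 windows, and it had the steepest profile of the members. The first window gave 0.0506, 0.433, 0.643 and 0.450 CPM for Holstein 1 to 4, beside 0.384, 0.139, 0.269 and 0.268 for Angus 1 to 4. Those values stood for 1 to 17 reads. The fifth window (11894798 to 11897797, exon 3) gave 6.12, 6.02, 6.51 and 6.45 CPM for Holstein 1 to 4, beside 4.61, 6.05, 4.27 and 7.38 for Angus 1 to 4. All 8 libraries were thus far higher there than in the first window, and the Angus values enclosed the Holstein ones. Windows 5, 6 and 7, which touch exons 3, 5 and 6, were the 3 highest of the gene in 8 of 8 libraries, at 5.92 ± 1.02, 5.81 ± 1.44 and 4.52 ± 0.74 CPM (SD, n = 8). On both sides the flanks were low, at 0.837 ± 0.239 CPM upstream and 0.428 ± 0.171 downstream (SD, n = 8). The block of high read counts covered the coding middle of IRF8 and ended before its last window, which had 0.860 ± 0.291 CPM.

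**Figure D2:**
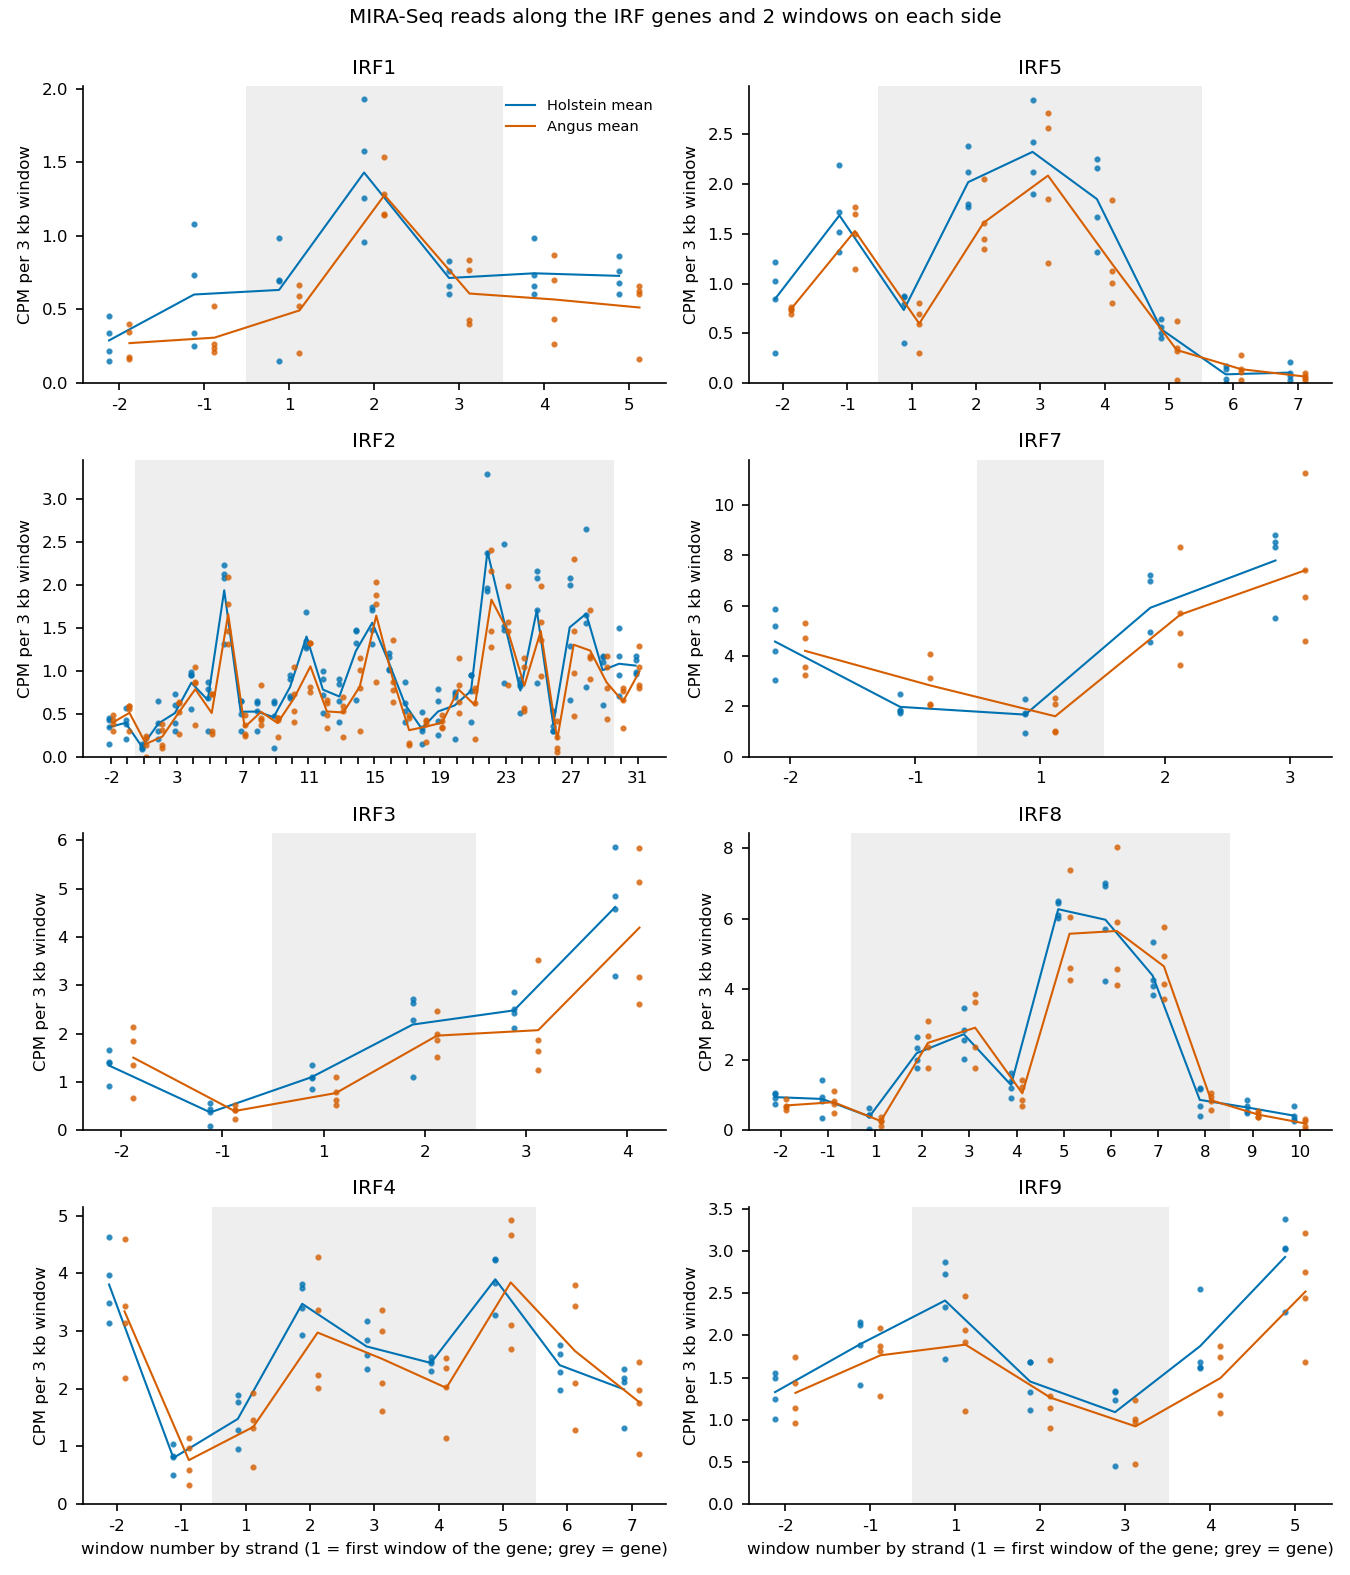
CPM per 3 kb window (y axis) along each IRF gene by strand (x axis, window number, with 1 for the first window of the gene and the gene shaded), with 1 point per library and a line for each breed mean, blue for Holstein and orange for Angus. The breed lines run close together, IRF8 shows a block in windows 5 to 7, and IRF9 starts at its highest window.

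The first window by strand stood for the promoter, since start sites were not in the files used here. Whether it carried fewer reads than the rest of the gene was tested within each library, with an exact two-sided sign-flip permutation test over 8 libraries and Benjamini-Hochberg adjustment over 20137 genes. Of the 7 members with more than 1 window, 6 had a lower first window and 1, IRF9, a higher one, each with an adjusted P of 0.0130 in this exact test. Each of them reached the smallest P that 8 libraries allow, 0.0078125. Over all genes, 50.6% were called lower and 22.0% higher, so that a lower first window was common in these libraries. The median difference was -0.83 CPM over the 7 members and -0.130 over all genes tested.

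IRF8 had the widest gap, with 0.330 CPM in the first window and 3.35 in the rest, a difference of -3.02 ± 0.60 CPM (SD, n = 8, lower in 8 of 8 libraries). IRF4 followed with -1.58 ± 0.46 and IRF3 with -1.14 ± 0.51, and both were lower in 8 of 8. The differences of IRF5, IRF2 and IRF1 were -0.83 ± 0.17, -0.76 ± 0.21 and -0.44 ± 0.14 CPM, again lower in 8 of 8 libraries each. IRF9 differed by 0.97 ± 0.43 CPM in the other direction and was higher in 8 of 8. Lower than the rest of the gene was not the same as low among genes. The median first window of the 8 members was 0.801 CPM, beside 0.410 over all genes, and IRF3, IRF4, IRF7 and IRF9 were above 77.3%, 85.9%, 88.4% and 92.2% of all first windows. IRF8, in contrast, was above 41.1% of first windows and above 93.7% of genes in its whole length. The first windows of IRF3 and IRF4 are labelled with coding exon 3 and that of IRF9 with exon 2. That of IRF7, labelled with exon 1, is the only window with its symbol. The values of these windows are therefore not those of promoters alone.

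**Figure D3:**
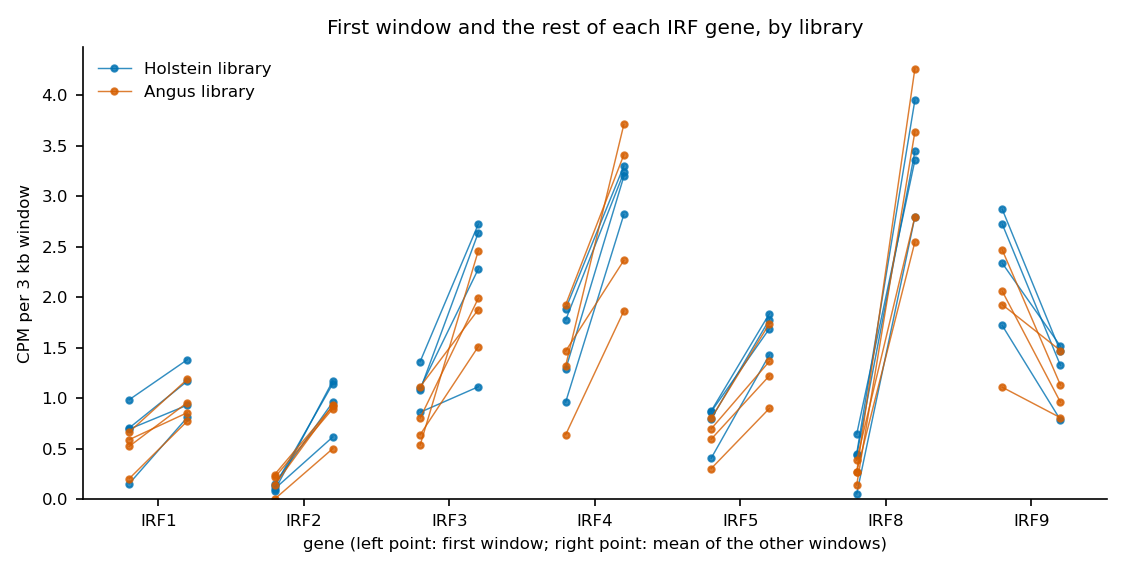
CPM per 3 kb window (y axis) in the first window (left point) and the mean of the other windows (right point) of the 7 IRF genes with more than 1 window (x axis), with 1 line per library, blue for Holstein and orange for Angus. All 8 lines rise in 6 genes and fall in IRF9.

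The first window was also set against the sequence upstream. It lay below the mean of the 2 upstream windows in 8 of 8 libraries in IRF2, IRF4, IRF5, IRF7 and IRF8, but in 2 of 8 in IRF1 and IRF3 and in 1 of 8 in IRF9. In IRF4 this rested on the farther upstream window, at 3.57 CPM. The nearest one had 0.781 CPM, less than the 1.41 CPM of the first window. The upstream windows of IRF3, IRF7 and IRF9 belong to the neighbours BCL2L12, CDHR5 and RNF31. Over 22723 genes with at least 80 reads, 23.3% had a first window below the upstream mean in 8 of 8 libraries. In IRF8, IRF5 and IRF2 windows with and without coding exons could be compared, after their values had been seen. In each of these genes the first window was among those without, which numbered 2 in IRF8. The comparison is therefore not separate from that of first windows. Coding windows had 3.44 CPM in IRF8, 1.86 in IRF5 and 1.01 in IRF2, beside 1.58, 0.973 and 0.821 CPM in the others, and they were higher in 8 of 8 libraries in each gene. Over 13036 genes with both kinds of window, 50.6% showed the same in 8 of 8 libraries.

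Holstein and Angus fibroblasts did not differ at the thresholds in any IRF window. A window was called at FDR < 0.1 and a fold change of at least 2 in edgeR's likelihood-ratio test, after a filter of at least 1 CPM in at least 4 libraries. Of the 56 windows 32 passed that filter, and 0 of 32 were called, beside 0.231% of all 115360 windows tested. A share as low as the background gives no call among 32 windows, so the count of 0 is no result about the IRF genes. At an unadjusted P under 0.05, 1 of 32 windows passed, beside 4.94% of all windows. Without the CPM filter 0 of 56 were called, beside 0.102% of all windows, and edgeR's quasi-likelihood test and DESeq2 also called 0. In the likelihood-ratio test without the filter 1 of 56 had an unadjusted P under 0.05, beside 40433 of all 887821 windows. It was IRF2 window 17, with a log2 fold change of 0.76, an interval of 0.10 to 1.42 and an FDR of 0.99997. The breeds did not overlap in 0 of the 32 windows tested, beside 1.31% of all windows tested, and that count too is what the background gives. They also overlapped in the 24 windows that did not pass the filter.

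In this fit the approximate 95% intervals of the log2 fold change lay within a 2-fold change either way in 32 of 32 windows, with bounds between -0.62 and 0.95. Some alternatives widened them. Without the CPM filter they stayed within that range in 48 of 56 windows, with bounds from -1.63 (IRF2 window 1) to 1.46 (IRF2 window 26). With libraries scaled by their totals alone they did so in 28 of 32 windows. The upper bound of IRF2 window 14 was then 1.25, and it was 1.22 without Angus 1 and 1.05 with animal number as block, while that of IRF5 window 4 was 1.15 without Angus 2. In the fit with the filter the fold changes themselves (log2, Holstein against Angus) ran from -0.30 to 0.47. Their median was 0.09 beside -0.0021 over all windows tested, and 25 of 32 were above 0. These windows are not independent, since 11 of the 32 belong to IRF2 and all were read in the same libraries. The count is therefore no result about the breeds. The other 24 windows were too thinly read to pass the filter. They included the first windows of IRF1, IRF2, IRF5 and IRF8, so the first windows of these 4 genes were compared only in the fit without the filter. There the intervals of the log2 fold change were -0.32 to 0.87 for IRF1, -1.63 to 0.73 for IRF2, -0.38 to 0.75 for IRF5 and -0.30 to 1.2 for IRF8. Those of IRF2 and IRF8 reached past a 2-fold change, toward Angus in IRF2 and toward Holstein in IRF8. A difference of that size was thus not excluded in their first windows. The narrower intervals of IRF1 and IRF5 are not taken to exclude it either. In the fit without the filter the SE was 0.255 in IRF4 window 4 and 0.254 in IRF7 window 1. The SDs of these windows were 0.10 and 0.55 CPM among Holstein and 0.62 and 0.70 among Angus libraries. The SE thus hardly reflected the spread of a single window. Of the windows just upstream of IRF1, IRF2, IRF5 and IRF8, only that of IRF5 passed the filter, with an interval of -0.36 to 0.37.

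Reads summed over each gene were compared in a separate fit. No gene total was called, with 0 of 8 beside 0.0567% of 19398 genes tested, and the adjusted P was 0.99998 in edgeR's likelihood-ratio test for every member. The lowest unadjusted P, in IRF5, was 0.154 in that test, and no member was called in the quasi-likelihood test or DESeq2. IRF5 had the largest change in this fit, with a log2 fold change of 0.21 ± 0.15 (SE) and an interval of -0.08 to 0.51. Leaving out 1 library moved it from 0.13 (without Angus 1) to 0.32 (without Angus 2), and without Angus 1 the values of IRF7 and IRF8, -0.30 and -0.23, were larger in size. Its Holstein mean was 1.49 ± 0.19 CPM per window and its Angus mean 1.16 ± 0.32 (SD, n = 4 each). IRF9, IRF2, IRF3, IRF1 and IRF4 had log2 fold changes of 0.13, 0.10, 0.10, 0.06 and 0.02, with SEs between 0.11 and 0.19. IRF8 and IRF7 had -0.12 ± 0.15 and -0.09 ± 0.27 (SE), and both turned to 0.04 and 0.09 when libraries were scaled by their totals alone, a scaling that moved the median of all genes to 0.15. Across the 8 genes the intervals of this fit ran from a 0.653-fold to a 1.42-fold difference, and IRF7, with its single window, had the widest. Over the alternatives they reached 0.569-fold, in IRF7 without Holstein 4, and 1.87-fold, in IRF5 with libraries scaled by their totals alone.

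**Figure D4:**
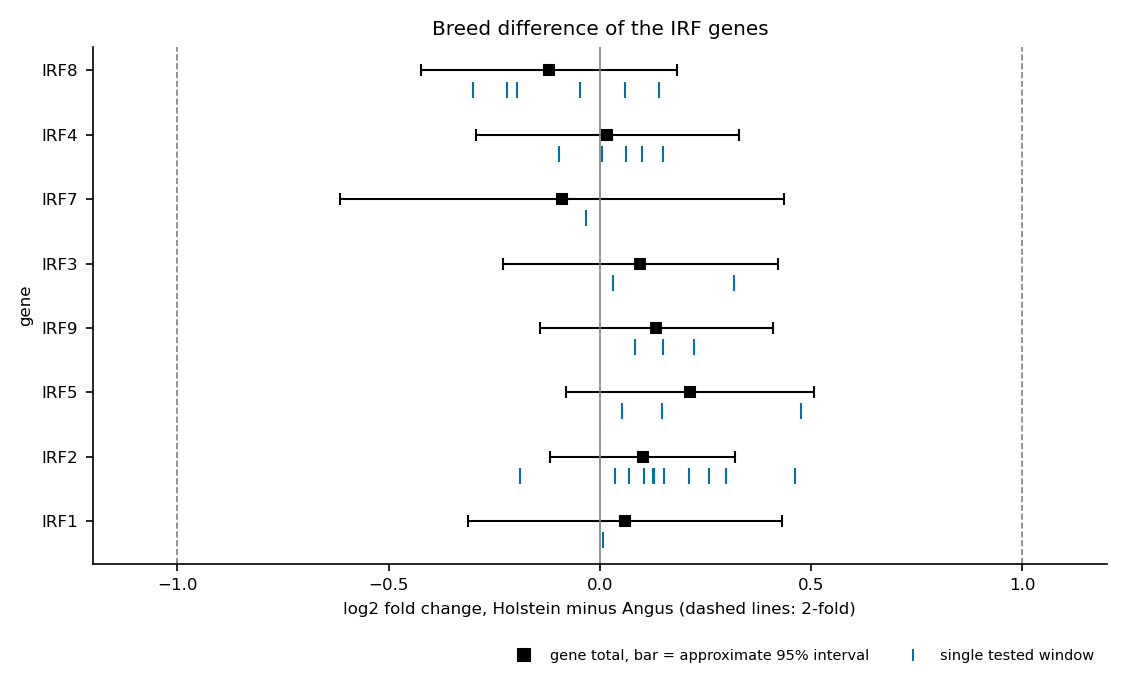
Log2 fold change of Holstein against Angus (x axis, edgeR with TMM scaling, dashed lines at 2-fold) for the total of each IRF gene (black squares, with approximate 95% intervals) and for each single window that passed the CPM filter (blue ticks). Every interval of a gene total includes 0 and lies inside the dashed lines.

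Of the windows that passed the filter, those with the lowest P in each direction were read one by one. In IRF5 the fourth window (93714605 to 93717604, exon 3) had 1.31, 2.16, 1.66 and 2.25 CPM for Holstein 1 to 4, beside 0.803, 1.84, 1.01 and 1.12 for Angus 1 to 4. Angus 2 lay within the Holstein range and the other Angus libraries below it. The log2 fold change was 0.47 ± 0.21 (SE), with an FDR of 0.863 in edgeR's likelihood-ratio test, and over 17 alternatives the FDR ran from 0.329 to 0.999993. Leaving out 1 library moved the log2 fold change from 0.32 (without Angus 1) to 0.70 (without Angus 2). In IRF2 the 14th window (13952067 to 13955066, no coding exon) ranged from 0.657 to 1.47 CPM among Holstein libraries and from 0.302 to 1.15 among Angus libraries. Its log2 fold change was 0.46 ± 0.25 (SE), at an FDR of 0.99992 in edgeR's likelihood-ratio test. Leaving out 1 library moved it from 0.29 (without Angus 3) to 0.71 (without Angus 1), and over 16 alternatives the FDR ran from 0.466 to 0.999994. The second window of IRF8 (11885798 to 11888797, exon 1) ranged from 1.77 to 2.65 CPM among Holstein and from 1.78 to 3.1 among Angus libraries, and its log2 fold change was -0.30 ± 0.16 (SE) at the same FDR.

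The lowest P of all lay in a neighbour. The window just upstream of IRF7 (50901219 to 50904218) belongs to CDHR5, exon 13, and had 1.82, 1.86, 1.74 and 2.51 CPM in Holstein 1 to 4. In Angus 1 to 4 it had 2.06, 3.13, 2.08 and 4.07 CPM, so that Holstein 4 lay among the Angus libraries and the other 3 Holstein libraries below them. Its log2 fold change was -0.61 ± 0.18 (SE), with an FDR of 0.128 in edgeR's likelihood-ratio test, 0.322 in the quasi-likelihood test and 0.920 without the CPM filter. Over 18 alternatives the FDR ran from 0.0212 to 0.999993 and was under 0.1 in 4, while the fold change stayed below 2 in each. Among the 16 flanking windows that passed the filter it was the single one with an unadjusted P under 0.05, and 0 of 16 were called. Without the filter 4 of 32 had an unadjusted P under 0.05 in edgeR's likelihood-ratio test, beside 40433 of all 887821 windows, and 0 of 32 were called. Besides this window they were the one just upstream of IRF1 (log2 fold change 0.79, interval 0.13 to 1.45) and windows downstream of IRF2 (0.66) and IRF8 (0.82). Their FDRs in that fit were 0.920 to 0.99997. IRF7 itself, 1 window downstream, had a log2 fold change of -0.03 ± 0.21 (SE).

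The rest of the interferon pathway was read in the same way from a list of 37 genes, of which 34 were matched in the files and 33 passed the filter on gene totals. Of these, 0 of 33 were called, beside 0.0567% of all genes, and 0 of 33 had an unadjusted P under 0.05, beside 2.07% of all genes. Counts of 0 among 33 genes are close to what such shares give, so they are no result about the pathway. Their log2 fold changes ran from -0.25 to 0.22, with a median of 0.01 beside -0.02 over all genes. The lowest P among them belonged to IFNGR2, a chain of the interferon gamma receptor, at 0.22 ± 0.13 (SE), IFNAR1, a chain of the type I interferon receptor, at -0.23 ± 0.14, and RSAD2, an antiviral enzyme, at -0.17 ± 0.12. Each had an adjusted P of 0.99998 in edgeR's likelihood-ratio test.

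For the first window, 21 of 33 genes on the list were lower and 5 higher than the rest of the gene, beside the 50.6% and 22.0% over all genes. Among the sensors and adaptors, which detect nucleic acids or pass on the signal of other sensors, 4 of 7 were lower and 1 was higher, namely IFIH1. Of the 10 interferon-induced targets 7 were lower and 3 higher. The targets with a higher first window were MX2, RSAD2 and USP18, and RSAD2 had 1.80 CPM in its first window and 0.716 in the rest. SPI1, the partner of IRF4 and IRF8, also had a higher first window, by 1.80 CPM.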

How the data were processed

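The members and gene lists were chosen with earlier results of these data known. Per the paper's methods, the authors filtered reads on quality and mapped them with NextGENe to UMD v3.1. The deposited files hold a read count for each of consecutive 3 kb windows, in whole numbers with totals that differ between libraries, so the counts were treated as not normalized. The sequencing software named in the submitters' processing notes was CASAVA 1.7. The deposited files also give a mean coverage signal per window, used here only for an alternative order of levels. Handling of duplicate and multiply matching reads is not given in the sources used here. Windows held 56.2 to 62.9% of matched reads.

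Breeds were compared in R 4.3.3 with edgeR 4.0.16 (TMM, likelihood-ratio test, Benjamini-Hochberg adjustment over all windows or genes with at least 1 CPM in at least 4 libraries). A fit used all windows, or all gene totals, and the IRF rows were read from it. SEs were derived from the fold change and its P, and intervals are 1.96 SE either way. First windows were tested in Python 3.11.15 with scipy 1.17.1 over genes with at least 80 reads. No 2 libraries of a breed agreed within sampling noise. Scripts were tested on simulated data.

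The text names all 8 members, for each its first and highest window and any window called, the 2 windows with the lowest P in each direction, the gene most like each member on another chromosome, and the 3 pathway genes with the lowest P. IRF2BP1, OAS1X and OAS1Y were not analysed here. Each fit was repeated with the quasi-likelihood test, with DESeq2 1.42.0, with other scalings and filters, on placed chromosomes only, with animal number as block, without each library in turn, and without Holstein 1 and Angus 3 together (chosen after seeing the data).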

Additional observations from a re-analysis of the deposited data

Results flagged for a closer look

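In groups of 4 libraries, 52 sets of values of the named genes and windows were screened for a library far from the other 3 of its breed, and 3 were found, where chance gives about 5% of sets. Angus 3 had 0.483 CPM per window over IRF2, and the other Angus libraries had 0.873 to 0.900. Holstein 1 had 0.405 CPM in the first window of IRF5, and the other Holstein libraries had 0.795 to 0.873. Holstein 4 had 2.51 CPM in the CDHR5 window just upstream of IRF7, and the other Holstein libraries had 1.74 to 1.86. Angus 3 and Holstein 1 also had the lowest TMM factors, 0.677 and 0.817 in the fit of windows, and with both left out 0 IRF windows and 0 IRF gene totals were called. The part of their read distribution in single values was not tested.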

How the results depend on the processing

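In 19 settings, 0 of the IRF windows, flanking windows and IRF gene totals tested were called. A setting tested 15 to 34 IRF windows, or 56 without the CPM filter, and 8 gene totals, or 7 with at least 1 CPM in all 8 libraries, where IRF7 dropped out. For first windows, the 6 lower and 1 higher calls held under the alternatives run, except that leaving the last window out of the rest gave 5 lower and 1 higher of 6, since IRF3 has 2 windows and had no value. Counts over all features moved. Windows called were 267, and became 141 with the quasi-likelihood test, 141 with DESeq2, 905 without the CPM filter, 163 with at least 1 CPM in all 8 libraries and 154 on placed chromosomes only. Genes called were 11, and became 0 with the quasi-likelihood test (337 at an unadjusted P under 0.05), 6 with DESeq2, 30 without the filter and 6 with at least 1 CPM in all 8 libraries. Leaving out 1 library gave 145 windows (without Holstein 4) to 564 (without Holstein 1), and 6 genes (without Holstein 4) to 17 (without Angus 3). Without Holstein 1 and Angus 3 together, chosen after seeing the data, 531 windows and 13 genes were called, and IRF4 total (-0.104), IRF5 window 3 (-0.0638) and IRF7 window 1 (0.0303) turned sign. The cause was not tested.

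With total counts only, the median log2 fold change of all windows was 0.14 and of all genes 0.15, and these signs turned: IRF8 total 0.0419, IRF7 total 0.0859, IRF4 window 5 0.0302 and IRF7 window 1 0.0979. On placed chromosomes IRF1 window 2 became -0.000794, and without the filter IRF3 window 2 became -0.0143. Leaving out 1 library turned the sign of some values near 0, with ranges of -0.0910 to 0.0946 (IRF4 total), -0.295 to 0.0889 (IRF7 total), -0.0144 to 0.163 (IRF3 total), -0.10 to 0.15 (IRF1 total), -0.15 to 0.12 (IRF1 window 2), -0.0749 to 0.135 (IRF3 window 2), -0.0453 to 0.164 (IRF4 window 1), -0.0100 to 0.156 (IRF5 window 3), -0.20 to 0.16 (IRF7 window 1) and -0.0455 to 0.124 (IRF8 window 5). Ranks moved from 4 to 5 for IRF3 and from 5 to 4 for IRF9 by mean coverage, and from 7 to 8 for IRF2 and from 8 to 7 for IRF1 by TMM library sizes.

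Animal numbers 1 to 4 occur in both breeds. Deviations of same-numbered libraries had a mean correlation of -0.0199 (-0.216 to 0.111), beside 0.0102 for other numbers, and 1 of 8 libraries correlated best with its own number, so the numbers were not taken to pair the animals. With the replicate block 346 windows and 12 genes were called, and with the block in the quasi-likelihood test, added after seeing the data, 242 and 0.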

Other observations

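The gene on another chromosome whose total followed a member most closely over the 8 libraries, by Pearson's r of log2 CPM with TMM scaling, was LOC100847692 for IRF8 (r = 0.998), TCHH for IRF4 (0.984), METRNL for IRF7 (0.983), LOC513496 for IRF5 (0.974), CMTM4 for IRF2 (0.966), LOC617559 for IRF9 (0.963), LOC614430 for IRF3 (0.958) and IER5 for IRF1 (0.896). Each is the highest of 18246 to 19161 values, on 8 points that share library and scaling. IRF8 had 1486 genes with r above 0.9, IRF4 137, and the other members 0 to 31. Among the members themselves r ran from -0.39 (IRF2 and IRF8) to 0.77 (IRF4 and IRF5).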
